A study of Mus musculus with 7 samples.

Results

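The genes described here are members of the circadian clock, the transcriptional loop that gives cells an internal day, measured in the gastric corpus of mice recovering from the loss of parietal cells. They were chosen by symbol: Arntl and Npas2 from the activating arm, Per1, Per2, Per3, Nr1d1, Nr1d2 and Ciart from the repressing arm, and the output factors Dbp and Tef, each through its probe set with the highest mean among those annotated to that gene alone. Of the 10 genes, 9 were measured, out of 22180 genes in all. The only probe set annotated to Per2 also carries a second gene, so no value is given for Per2.

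All mice carried the Atp4b-DTR transgene, which places a diphtheria toxin receptor under the control of the proton pump gene Atp4b and so directs the toxin at the acid-secreting parietal cells. They were 8 to 12 weeks old. The saline group (1 array) carried the transgene and was dosed on each of 3 days without toxin. The toxin groups received 225 ng of diphtheria toxin per mouse on each of 3 days. They were sampled 24 h (1 array), 36 h (1 array), 48 h (2 arrays) or 72 h (2 arrays) after the last dose. The labels give no strain or sex, and do not say whether an array holds 1 animal or several.

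In mammalian cells the transcription factors ARNTL (also called BMAL1) and CLOCK, or its relative NPAS2, bind E-box elements and switch on the Per and Cry genes, whose products return to block them. The same pair drives Nr1d1 and Nr1d2, which encode the repressors REV-ERB alpha and beta; these shut down Arntl and Npas2 through ROR elements, so the arms run out of step with each other in peripheral tissues. Dbp and Tef encode PAR bZIP factors that act through D-box elements, with Nfil3 as their opponent, and Ciart (CHRONO) encodes another repressor of the ARNTL and CLOCK pair. The stomach has such a clock, set by the light cycle and by feeding. The sampling times bear on it because 24, 48 and 72 h after a dose fall at the same time of day as that dose and 36 h falls 12 h away. The hours at which the doses were given or the saline group was sampled are not stated, so this holds only for doses given at the same hour.

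Sequences of the elements are shown for the genes that held them, since the results below are ordered by these arms. RefSeq promoter windows (GRCm38.p6, 250 bases before to 50 after each gene's start) were found for 9 of the 10 genes, 12 windows in all, and searched on both strands for the E-box CACGTG, the D-box TTATGTAA or TTATGCAA and the ROR element (of which the Arntl stretch shows a match). At least 1 motif was present in 5 genes, with no overlap between motifs. Over all 32851 windows the E-box was present in 7.15%, the D-box in 1.66% and the ROR element in 0.435%. These shares are per window and motif, so the count of 5 genes with any motif, some with more than 1 window, cannot be set against them. Capitals mark the motifs in the stretches, which are given 5′ to 3′ on the gene's strand.
Ciart (chr3:95882259-95882358, minus strand), 3 E-boxes that begin 116, 58 and 44 bases before the start: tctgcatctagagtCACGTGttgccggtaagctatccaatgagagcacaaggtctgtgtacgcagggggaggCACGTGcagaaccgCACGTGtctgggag
Per1 (chr11:69098769-69098938, plus strand), an E-box 166 bases and a D-box 24 bases before the start: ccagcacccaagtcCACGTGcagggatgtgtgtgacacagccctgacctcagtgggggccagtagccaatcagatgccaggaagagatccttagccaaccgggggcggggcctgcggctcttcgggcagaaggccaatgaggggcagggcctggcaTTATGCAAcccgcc
Tef, upstream start (chr15:81802528-81802567, plus strand), an E-box 127 bases before it: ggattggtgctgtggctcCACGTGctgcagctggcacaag
Tef, downstream start (chr15:81811259-81811298, plus strand), an E-box 138 bases before it: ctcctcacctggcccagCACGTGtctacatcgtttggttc
Per3 (chr4:151044806-151044880, minus strand), D-boxes 205 and 158 bases before the start: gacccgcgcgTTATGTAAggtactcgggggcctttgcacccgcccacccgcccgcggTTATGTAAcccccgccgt
Arntl (chr7:113207523-113207552, plus strand), a ROR element whose first base is base 28 after the start: tttagggaaggcagaAAGTAGGTCAgggac
Per1 and Arntl each had another window, around a different start, that held none of the motifs. The stretches show matches of letters in a short window, and a gene without one may hold the element elsewhere.

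Some traits of the series bear on every value below. The arrays fell into 2 sex patterns: Xist had a log2 signal of 8.13 on the saline and 9.17 on the 24 h array, and 2.70 to 3.27 on the other 5 arrays. The mean log2 signal of 10 parietal cell markers was 9.91 on the saline array, 8.17 at 24 h, 8.82 at 36 h, 8.28 and 8.73 at 48 h, with its highest toxin value, 9.24, at 72 h. Atp4a and Atp4b, the proton pump genes that define the cell, were at 10.68 or more on every array, whereas the transporter gene Slc26a7 had 4.26 to 5.28 on the toxin arrays, against 8.66 on the saline array. Over the same arrays the mean of 3 proliferation markers was 6.78, 8.52, 8.24, 8.29, 8.11, 7.81 and 7.45. The part of these shifts in the values of the clock genes was not tested, and in bulk tissue fewer cells of a type and less RNA per cell cannot be told apart. In 39.7% of genes all 7 arrays had different values; this was so for 7 of the 9 clock genes, while Per3 and Ciart each had 4 distinct values, with the same number on 4 arrays.

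The question put first was whether the 36 h array, the one out of step with the day, differed from the other toxin times. It had the highest log2 signal of all 7 arrays in Per3, Dbp, Tef and Nr1d2 and the lowest in Arntl and Npas2, whereas Per1, Nr1d1 and Ciart lay within the range of the other arrays. The differences ran up to 1.69-fold, in Arntl. No gene passed the test of this comparison across all genes, so these are values and not calls. Among the other toxin times the 24 h array had another sex pattern, with Xist at 9.17, against 3.22 at 36 h. The part of that pattern in these differences was not tested. Above all 6 other arrays stood 4 of 9 clock genes, against 12.4% of all genes, and below all of them 2 of 9, against 13.1%. None was also 2-fold from the mean of the 5 other toxin arrays, as 0.0766% of all genes were above and 0.126% below.

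**Figure D1:**
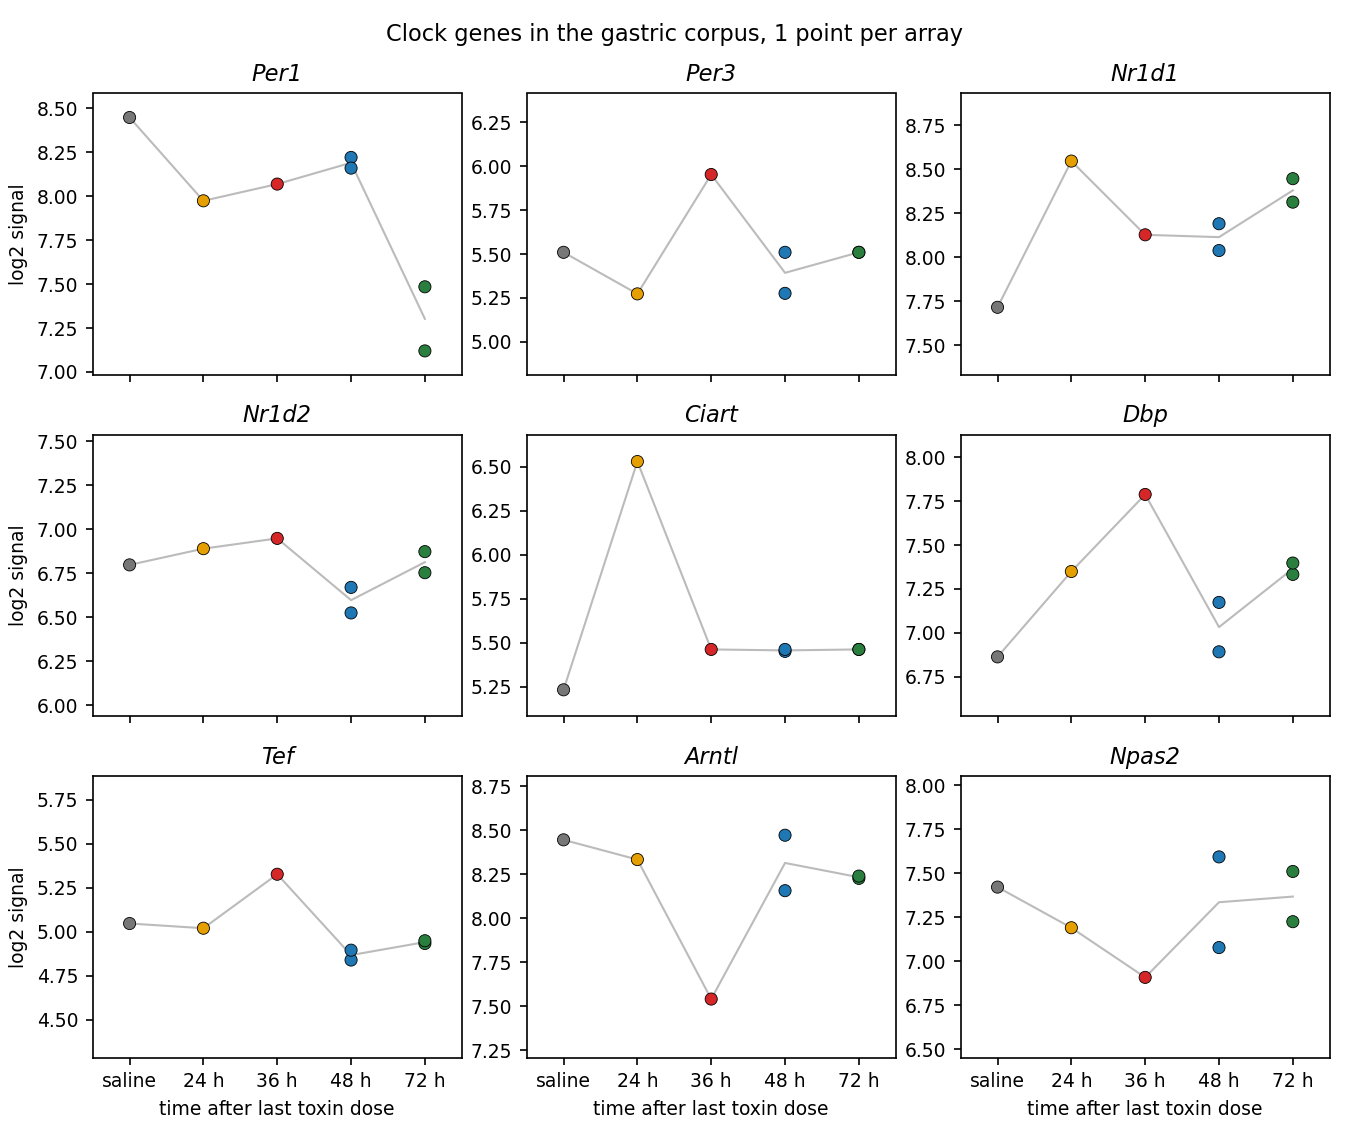
Log2 signal (vertical axis, spanning the same width in every panel) of the 9 measured clock genes on the saline array and 24, 36, 48 and 72 h after the last toxin dose (horizontal axis). Each point is 1 array, lines join the group values or means, and coinciding points hide each other at 72 h in Per3 and at 48 h and 72 h in Ciart; the 36 h point is the lowest for Arntl (7.54) and the highest for Dbp (7.79).

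In the activating arm, Arntl had a log2 signal of 8.45 on the saline array, 8.33 at 24 h, 7.54 at 36 h, 8.47 and 8.16 at 48 h, then 8.23 and 8.24 at 72 h. The 36 h array stood alone: it lay 0.62 below the nearest array, while the widest gap within a pair was 0.32, at 48 h, and the other 6 arrays spanned 8.16 to 8.47 in no order of time. Arntl was 0.75 ± 0.15 (SE of the limma fit) lower on the log2 scale at 36 h than the mean of 24, 48 and 72 h, with an unadjusted p of 0.0124 and an adjusted p of 0.483. Npas2, whose protein can take the place of CLOCK beside ARNTL, had 7.42 on the saline array, 7.19 at 24 h, 6.91 at 36 h, 7.59 and 7.08 at 48 h, then 7.22 and 7.51 at 72 h. Its 36 h array was also the lowest, but only 0.17 below the next, less than the 0.52 between the arrays of 48 h. The difference in Npas2 was -0.39 ± 0.26, with an unadjusted p of 0.231 and an adjusted p of 0.867.

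Among the outputs, Dbp had a log2 signal of 6.86 on the saline array, 7.35 at 24 h, 7.79 at 36 h, 6.89 and 7.17 at 48 h, then 7.33 and 7.40 at 72 h. The 36 h array was 0.39 above the next one, which exceeds the 0.28 between the arrays of 48 h. Below it came the 72 h mean of 7.37 and the 24 h value of 7.35, which cannot be ordered, then the 48 h mean of 7.03 and the saline array, whose difference of 0.17 was also within the spread at 48 h. Dbp differed by 0.54 ± 0.13 between 36 h and the mean of the other toxin times, a 1.45-fold difference with an unadjusted p of 0.0252 and an adjusted p of 0.517.

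Tef, the close relative of Dbp, had 5.05 on the saline array, 5.02 at 24 h, 5.33 at 36 h, 4.84 and 4.90 at 48 h, then 4.93 and 4.95 at 72 h. The other 6 arrays kept within a narrow band and the 36 h array lay 0.28 above it, against at most 0.06 within a pair. The difference from the other toxin times was 0.38 ± 0.05, with an unadjusted p of 0.00371 and an adjusted p of 0.481. Tef had the lowest mean signal of the 9 genes, at the 47.3rd percentile of all genes, and a second, dimmer probe set differed by 0.18 from the mean of the other toxin arrays where the one used differed by 0.40; both were highest at 36 h.

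In the repressing arm Per3 and Nr1d2 were highest at 36 h, while Per1 and Nr1d1 were not. Per3 had a log2 signal of 5.51 on the saline array, 5.27 at 24 h, 5.95 at 36 h, 5.28 and 5.51 at 48 h, then 5.51 on both arrays at 72 h. Only the 36 h array stood above 5.51, by 0.44, and the 24 h array was level with the lower array of 48 h. Per3 differed by 0.56 ± 0.11 at 36 h from the other toxin times, a 1.47-fold difference (unadjusted p of 0.0134, adjusted p of 0.483). Its 72 h arrays had the same value, so of the pairs only that of 48 h, 0.23 apart, added to the spread in this fit. Nr1d2 had 6.80 on the saline array, 6.89 at 24 h, 6.95 at 36 h, 6.52 and 6.67 at 48 h, then 6.75 and 6.87 at 72 h. It was highest at 36 h by 0.06, less than the 0.15 between the arrays of 48 h, and its difference of 0.18 ± 0.09 had an adjusted p of 0.759.

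Per1, a Per gene that also answers acute signals such as glucocorticoids, had a log2 signal of 8.45 on the saline array, 7.97 at 24 h, 8.07 at 36 h, 8.22 and 8.16 at 48 h, then 7.12 and 7.48 at 72 h. Its outlying times were the 2 arrays of 72 h, below every other array, and 36 h lay in the middle, at 0.25 ± 0.17 from the other toxin times (adjusted p of 0.868). Nr1d1, the gene of REV-ERB alpha, had 7.72 on the saline array, 8.55 at 24 h, 8.13 at 36 h, 8.19 and 8.04 at 48 h, then 8.31 and 8.45 at 72 h. The 36 h value lay between the arrays of 48 h, and the difference from the other toxin times was -0.22 ± 0.10 (adjusted p of 0.694), or -0.12 without the 24 h array, its highest. Dbp and Nr1d2 were highest at 36 h and Nr1d1 was not; that difference between genes was not tested.

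Ciart stood apart at a different time. It had a log2 signal of 5.23 on the saline array, 6.53 at 24 h, 5.46 at 36 h, 5.45 and 5.46 at 48 h, then 5.46 on both arrays at 72 h. The 24 h array was thus 1.07 above the next one, while the 5 later arrays were nearly the same. In the fit, Ciart at 36 h was -0.35 ± 0.04 from the other toxin times (unadjusted p of 0.00300, adjusted p of 0.481), and this rested on the 24 h array: without it the difference was 0.00 (0.0027575 before rounding). The spread in all fits of Ciart rested on pairs that differed by 0.01 at 48 h and 0 at 72 h. Its small standard errors and unadjusted p-values reflect these repeated values.

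Across the comparison of 36 h with the other toxin times, limma called 0 of 22180 genes (0.00%), with a smallest adjusted p of 0.481. At an unadjusted p under 0.05, 954 genes were higher (4.30%) and 970 lower (4.37%). Of the 9 clock genes, Per3, Dbp and Tef were among the higher and Arntl and Ciart among the lower, the last through its 24 h value. The median over the 9 genes was 0.21 from the mean of the 5 other toxin arrays, against 0.00 over all genes, but with values on both sides a median says little of them. The test rests on 2 residual degrees of freedom from the pairs of 48 h and 72 h and takes the lone 36 h array to vary as they do. The labels call the 2 samples at these times independent without saying which animals they came from, so p-values measure only the spread between these arrays.

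**Figure D2:**
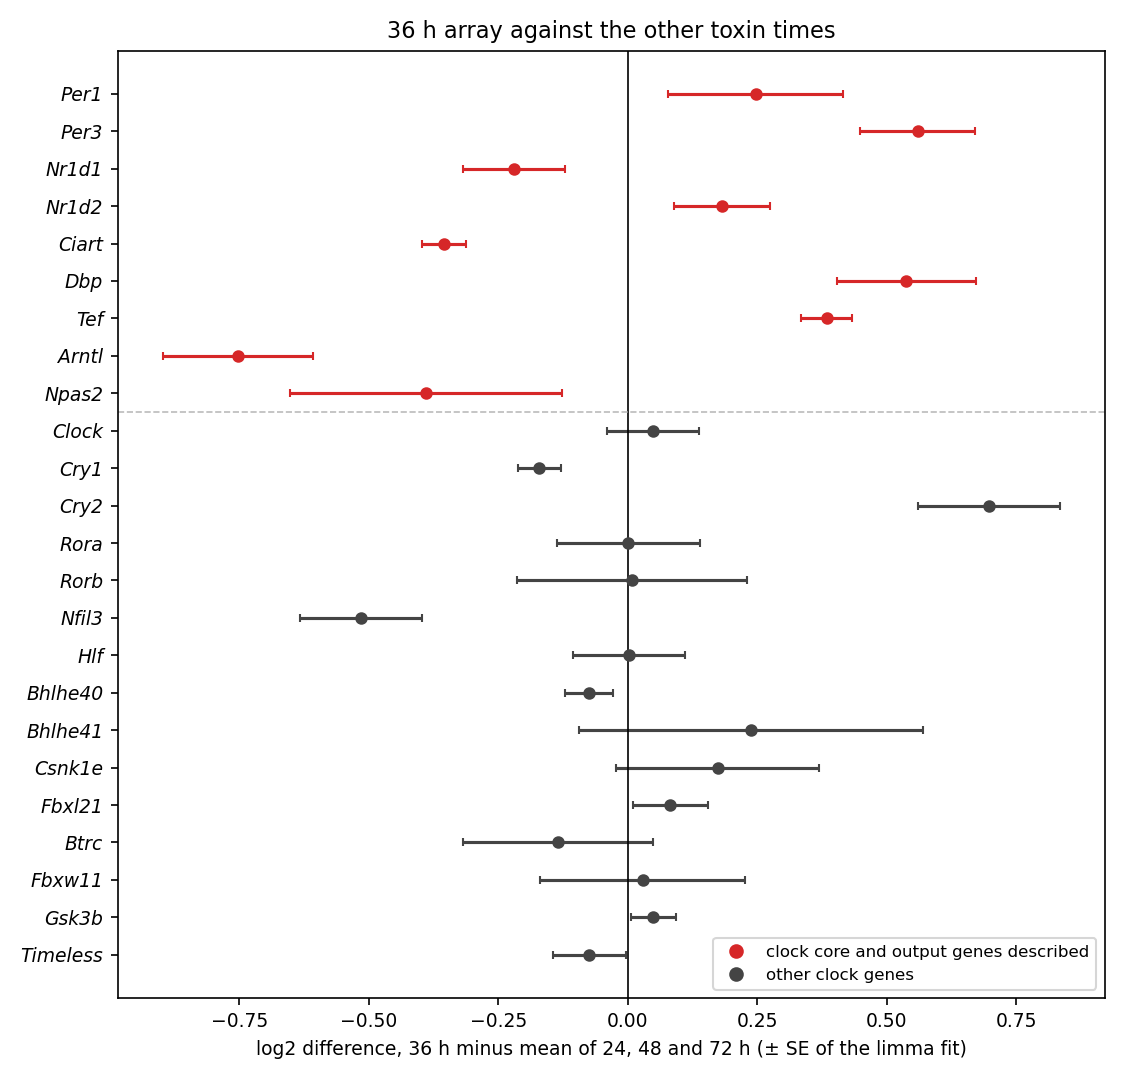
Log2 difference of the 36 h array from the mean of 24, 48 and 72 h (horizontal axis) for the 9 clock genes described, above the dashed line, and for 15 other clock genes below it. Points are limma estimates and bars their standard errors; Arntl lies at -0.75 and Per3 at 0.56, and of the other clock genes Cry2 lies at 0.70 and Nfil3 at -0.52.

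Of 18 further genes of the clock, 15 had a probe set of their own. Of these, 10 were higher and 5 lower at 36 h than the mean of the 5 other toxin arrays. Of all 22180 genes, 11208 were higher and 10893 lower. The 15 genes had a median of 0.01 against 0.00 over all genes, and none was called. Cry2, which encodes a cryptochrome, the partner of the PER proteins in repression, had a log2 signal of 6.42 on the saline array, 6.51 at 24 h, 7.01 at 36 h, 6.38 and 6.09 at 48 h, then 6.15 and 6.23 at 72 h. Its 36 h array was the highest, and the difference from the other toxin times was 0.70 ± 0.14, with an unadjusted p of 0.0130 and an adjusted p of 0.483. Nfil3, the factor that opposes DBP and TEF at D-boxes, had 6.03 on the saline array, 6.31 at 24 h, 5.76 at 36 h, 6.02 and 6.15 at 48 h, then 6.31 and 6.53 at 72 h. It was lowest at 36 h, where Dbp and Tef were highest, with a difference of -0.52 ± 0.12 (unadjusted p of 0.0203, adjusted p of 0.509).

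The other core genes showed smaller differences at 36 h. Clock was at 0.05 ± 0.09, the activator of ROR elements Rora at 0.00 ± 0.14, the third PAR bZIP gene Hlf at 0.00 ± 0.11, and the E-box repressors Bhlhe40 and Bhlhe41 at -0.08 ± 0.05 and 0.24 ± 0.33. All 5 had an unadjusted p of at least 0.196, which does not show equal levels. Cry1 had 6.39 on the saline array, 7.08 at 24 h, 6.47 at 36 h, 6.41 and 6.41 at 48 h, then 6.42 and 6.43 at 72 h. As in Ciart, 1 array stood apart and it was that of 24 h; the fit at 36 h gave -0.17 ± 0.04 (unadjusted p of 0.0250, adjusted p of 0.517).

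The 24 h array was then described in the same way, a step chosen after these values were seen. It lay above all 6 other arrays in Nr1d1 and Ciart, 2 of 9 clock genes against 14.2% of all genes, and below all of them in Per3, by 0.003 on the log2 scale, against 13.3%. Ciart lay 1.07 above the mean of the 5 other toxin arrays, and only 31 genes (0.140%) were both above all other arrays and at least 2-fold above that mean. Nr1d1 lay 0.32 above it and 0.10 above the next array, less than its spread within pairs of 0.15. Cry1 at 0.65 and Bhlhe41 at 0.82 were also highest at 24 h. Xist was at 9.17 on the 24 h array and at 2.70 to 3.27 on the 5 other toxin arrays. In the differences from those 5 arrays, sex pattern and time after the dose cannot be told apart. The saline array, which had the sex pattern of the 24 h array, was at 5.23 for Ciart, 7.72 for Nr1d1, 6.39 for Cry1 and 4.68 for Bhlhe41. The part of that pattern in these values was not tested. With 1 array at 24 h there is no replicate.

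**Figure D3:**
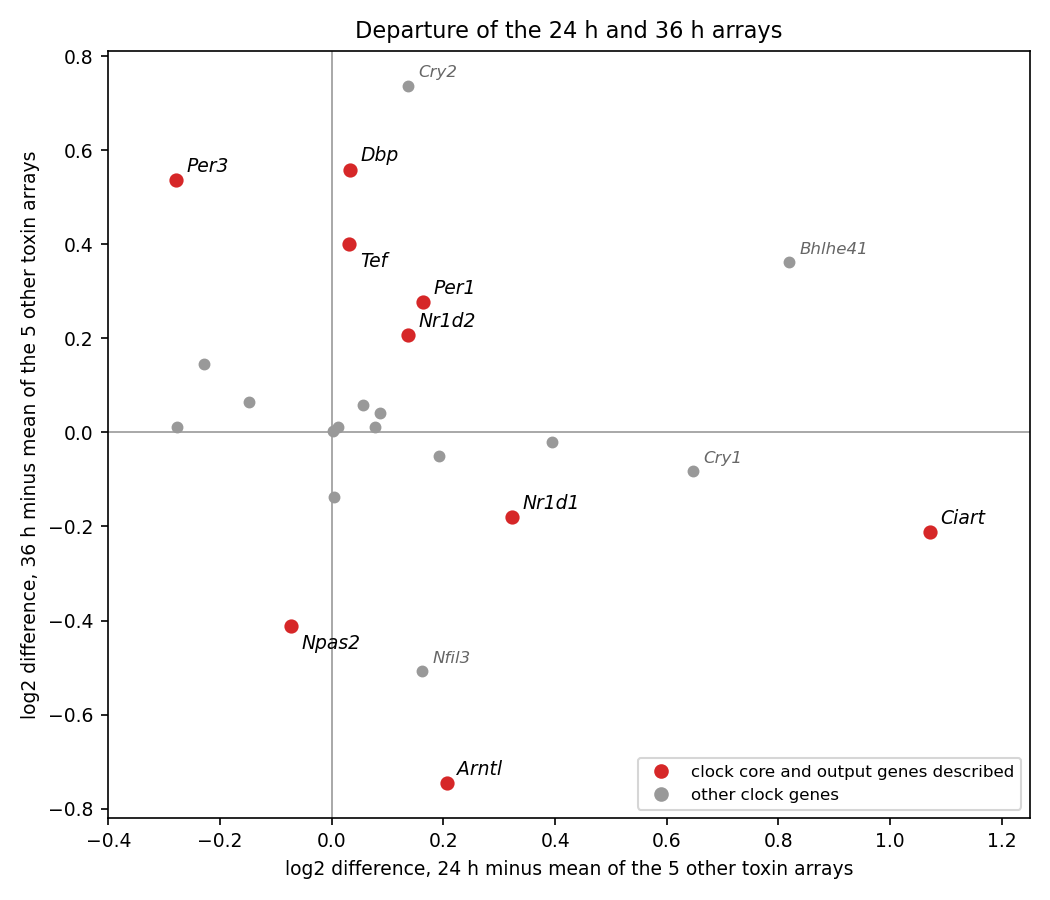
Log2 difference of the 24 h array (horizontal axis) and of the 36 h array (vertical axis), each from the mean of the 5 other toxin arrays, for the 9 clock genes described (red) and 15 other clock genes (grey, 4 of them named). Ciart lies far to the right (1.07) and not above 0 at 36 h, Dbp, Tef and Per3 lie high without lying to the right, and Arntl and Nfil3 lie low.

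Against saline, the comparison asked how the clock genes differed from uninjured corpus. Dbp, Nr1d1 and Ciart were above the saline array on all 6 toxin arrays (20.2% of all genes were) and Per1 was below it on all 6 (22.6%). Since the saline group is 1 array, sampled at an hour not stated, a trait of that array enters all of these differences and cannot be told apart from an effect of the toxin. The sex pattern of that array, with Xist at 8.13, differed from that of the 36, 48 and 72 h arrays, at 2.70 to 3.27. At those times sex pattern and toxin cannot be told apart. At 24 h only Ciart differed from saline by at least 2-fold, being 1.30 higher on the log2 scale, against 1.20% of genes at least that fold higher and 1.67% lower. At 36 h none did: Dbp was 0.92 higher and Arntl was -0.91 from saline, against 0.933% of all genes at least 2-fold above saline and 1.61% below it.

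At 72 h Per1 differed most from saline among the clock genes. Its arrays of 7.12 and 7.48 averaged 7.30, against 8.45 on the saline array, a log2 difference of -1.15 ± 0.19 or 2.21-fold (unadjusted p of 0.00753, adjusted p of 0.161). At 48 h the arrays averaged 8.19, at -0.26 ± 0.19 (adjusted p of 0.583). Nr1d1 was 0.40 ± 0.11 above saline at 48 h and 0.66 ± 0.11 above it at 72 h, with adjusted p of 0.215 and 0.162. For Dbp the differences were 0.17 ± 0.15 at 48 h and 0.50 ± 0.15 at 72 h, with adjusted p of 0.671 and 0.254. Ciart was at 0.22 ± 0.05 and 0.23 ± 0.05, with adjusted p of 0.167 and 0.183. These comparisons share the saline array, whose sex pattern differed from that of the 48 h and 72 h arrays.

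The remaining clock genes lay within 0.21 of saline at both times. Arntl was at -0.13 ± 0.16 at 48 h and -0.21 ± 0.16 at 72 h, Npas2 at -0.09 ± 0.29 and -0.05 ± 0.29, and Nr1d2 at -0.20 ± 0.10 and 0.02 ± 0.10. Tef was at -0.18 ± 0.05 and -0.11 ± 0.05, and Per3 at -0.12 ± 0.12 and 0.00 ± 0.12. None of the 9 passed, nor did any of the 22180 genes at 48 h or 72 h (0.00% in both). At an unadjusted p under 0.05, 48 h against saline had Nr1d1 and Ciart higher and Tef lower, 3 of 9, where 19.7% of all genes passed. At 72 h Dbp, Nr1d1 and Ciart were higher and Per1 lower, 4 of 9, where 17.9% passed. The arrays of the group did not overlap the saline array in 6 of 9 clock genes at either time, 3 on each side; over all genes 31.9% lay above and 34.4% below at 48 h, then 34.2% above and 33.9% below at 72 h.

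The comparison of 72 h with 48 h is the only one with 2 arrays on each side, and both times fall at the same hour of the day if the doses did. Per1 had log2 signals of 7.12 and 7.48 at 72 h, against 8.22 and 8.16 at 48 h. The groups did not overlap, and the difference was -0.89 ± 0.15, or 1.85-fold, with an unadjusted p of 0.00877 and an adjusted p of 0.705. Dbp had 7.33 and 7.40 at 72 h, against 6.89 and 7.17 at 48 h, a difference of 0.33 ± 0.12 (adjusted p of 0.723) that was 0.19 without the lower array of 48 h. Nr1d1 differed by 0.27 ± 0.09, Nr1d2 by 0.22 ± 0.08 and Tef by 0.07 ± 0.04, and in each of them, as in Dbp, both arrays of 72 h were above both of 48 h. In all, 4 of 9 clock genes were above without overlap and 1 below, against 16.7% and 13% of all genes. Arntl at -0.08 ± 0.13, Npas2 at 0.03 ± 0.24, Per3 at 0.12 ± 0.10 and Ciart at 0.01 ± 0.04 overlapped or shared a value between the times. No gene passed in limma (0.00%; smallest adjusted p of 0.705), and 1569 genes had an unadjusted p under 0.05, 7.07% of all, of which Per1 was the only clock gene.

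Lists of genes that follow the day in other tissues were set beside the clock genes on the 36 h array. Of all 22180 genes, 11208 were higher and 10893 lower there than the mean of the 5 other toxin arrays. Of 13 clock output genes, 10 were higher and 3 lower at 36 h than the mean of the 5 other toxin arrays, with a median of 0.06; Bhlhe41 stands in this list and among the clock genes above. Only Tspan4 was above all other arrays (12.4% of all genes were), at 0.50, a gene named after its value was seen. Of 11 genes that respond to glucocorticoids, the adrenal hormones with a daily rhythm, 9 were higher and 2 lower, with a median of 0.07; Zbtb16, also named after its value was seen, was the only one above all other arrays, at 0.67. None of either list had an unadjusted p under 0.05.

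Of 11 genes that respond to body temperature, 10 were measured, 7 of them lower at 36 h and 3 higher. Their median was -0.20 against 0.00 over all genes, and 5 were below all other arrays, as 13.1% of all genes were. The 3 higher were Cirbp at 0.30, Hspd1 at 0.05 and Hspe1 at 0.05. The list was not divided by the direction in which each gene responds to temperature, so its median says little of such a response. The inducible heat shock gene Hspa1b had a log2 signal of 6.68 at 36 h, against 8.36 on the saline array and 8.63 to 10.08 on the other toxin arrays. It differed by -2.46 ± 0.64 from the other toxin times (unadjusted p of 0.0287, adjusted p of 0.517), and Hspa1a, a near-identical copy whose probes may share signal with it, by -1.86 ± 0.57. Hsph1, a partner of HSP70 proteins, differed by -1.23 ± 0.23 (unadjusted p of 0.0119, adjusted p of 0.483). Hspa1b and Hspa1a also varied widely without regard to the hour, by 1.45 and 1.28 on the log2 scale between the 2 arrays of 72 h.

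**Figure D4:**
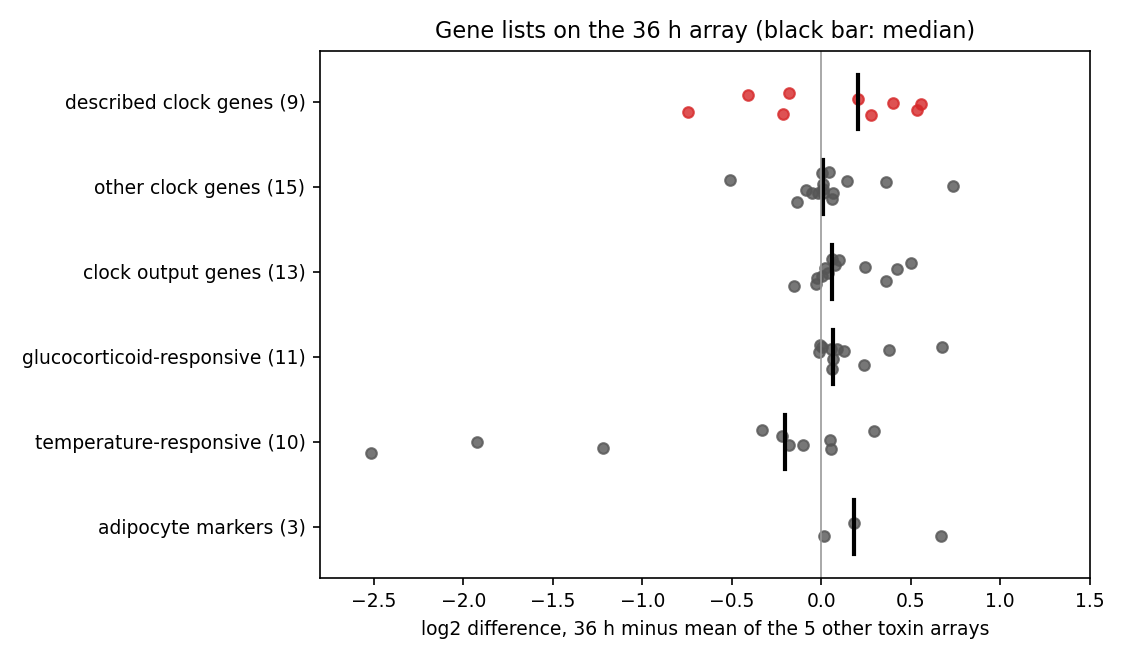
Log2 difference of the 36 h array from the mean of the 5 other toxin arrays (horizontal axis) for each gene of the clock genes described (red) and of 5 other lists (grey), with the number of measured genes in brackets. Black bars are medians and the vertical scatter within a row carries no value; 3 heat shock genes lie below -1, while the medians of the other clock, output and glucocorticoid lists lie within 0.07 of 0.

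Markers of other cells on the 36 h array are given because adjoining tissues hold clocks of their own. Of all 22180 genes, 11208 were higher and 10893 lower on it than the mean of the 5 other toxin arrays. The 10 parietal cell markers had a median of 0.13 above the mean of the 5 other toxin arrays, with 9 of 10 higher, and this median ranged from 0.04 to 0.32 when 1 array of 48 h or 72 h was left out. For 5 smooth muscle markers it was 0.24, with 5 of 5 higher and 2 above all other arrays. The mean log2 signal of the smooth muscle markers was 10.45 on the saline array, 10.33 at 24 h, 10.55 at 36 h, 10.29 and 10.22 at 48 h, then 10.29 and 10.54 at 72 h. The 3 adipocyte markers had a median of 0.18, with 3 of 3 higher and 1, Cidec, above all other arrays. The defining gene Adipoq was dim, at 2.97 to 3.59 over the 7 arrays. Plin1 had 4.65 at 36 h, against 4.36 to 4.88 elsewhere. Cidec had 7.63 at 36 h, against 6.68 to 7.19 elsewhere. Of the other marker lists, 3 of 4 surface pit cell markers were above all other arrays at 36 h and 2 of 5 chief cell and 2 of 4 endothelial markers below them, with medians of 0.04, 0.01 and -0.17; of all genes 12.4% were above and 13.1% below. The 3 mucous neck cell markers had a median of 0.32 with 2 higher, the 3 measured proliferation markers 0.23 with 3 higher (0.03 to 0.31 when 1 array was left out), and the 5 leukocyte markers -0.10 with 4 lower. The 2 measured neuron and glia markers had a median of 0.03. The part of these cells in the 36 h values of the clock genes was not tested.

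The genes whose values over the 7 arrays came closest to the clock genes were found by the root mean square difference of gene-centred log2 signals. For the mean profile of Per1, Per3, Dbp, Tef, Nr1d1, Nr1d2 and Ciart they were Htra2 (0.04), Ttc27, Nelfcd, Ltv1, Cyp4a12b, Bex3, Zfp850 and Pradc1 (0.05). That mean profile spanned only 0.33, since its genes were highest at different times, so many genes with small changes come near it. For the mean of Arntl and Npas2, which spanned 0.81, they were Pea15a (0.07), Gpr137b (0.09), Wwtr1 (0.09) and Fam180a (0.09). Wwtr1, which encodes the transcriptional coactivator TAZ, had a log2 signal of 7.02 on the saline array, 6.72 at 24 h, 6.26 at 36 h, 6.82 and 6.61 at 48 h, then 6.72 and 6.89 at 72 h. The 36 h array was the lowest in all 4, which follows largely from how they were picked, since the mean of Arntl and Npas2 was itself lowest at 36 h.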

How the data were processed

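RNA of the frozen corpus was hybridised as biotinylated cDNA to 7 arrays, 1 for each sample. The authors deposited log2 signal of 41345 probe sets, normalised by RMA in Partek per the submitters' processing notes (versions not given in the sources used here), which was used with no further scaling. Array medians ran from 4.56 to 4.71. Precision is limited by the small number of arrays.

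By the platform annotation 23521 probe sets had 1 gene, 1814 several and 16010 none. Where a gene had more than 1 (1082 genes), the one of highest mean was kept, leaving 22180 genes. Entrez identifiers of 23328 probe sets were found in the RefSeq table of GRCm38.p6, with 0 symbols changed; that assembly also gave the promoters. No filter on low values was set.

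The tests, two-sided, used lmFit and eBayes of limma 3.58.1 (R 4.3.3), fitting 1 mean per group on all 7 arrays (2 residual degrees of freedom, 1.15 from the prior), and Benjamini-Hochberg adjustment over all genes; a call is an adjusted p under 0.05. The comparisons were 36 h against the mean of 24, 48 and 72 h, 48 h and 72 h against saline, and 72 h against 48 h. Differences of 24 h and 36 h from saline, 1 array against 1, were not tested. Fits were tested on simulated data. Alternatives were quantile normalisation again, array medians subtracted, dim genes left out, the mean of probe sets, a trended prior, each 48 h and 72 h array left out, the 24 h array left out, the other arrays pooled, and a replicate block.

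The clock genes and all lists were chosen with earlier results of these data known. Genes of the clock, output, glucocorticoid and temperature lists are named if core clock genes or at least 0.7 apart at 36 h. Tspan4, Zbtb16, Cirbp, Hspd1 and Hspe1 were added after their values were seen. Like genes are the 8 and 4 nearest, and 2 predicted or unnamed genes were passed over.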

Additional observations from a re-analysis of the deposited data

Results flagged for a closer look

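In Per3, Tef and Nr1d2 the toxin times lay on opposite sides of the saline array, on every array of the times named; these differences between times were not tested. Per3 was 0.44 at 36 h and -0.24 at 24 h from saline, a difference of 0.68 between them. Tef was 0.28 at 36 h and -0.03 at 24 h, a difference of 0.31. It was -0.18 at 48 h and 0.28 at 36 h, a difference of -0.46, and at 72 h it was -0.11, a difference of -0.39 from 36 h. Nr1d2 was -0.20 at 48 h, a difference of -0.29 from the 0.09 of 24 h and of -0.35 from the 0.15 of 36 h. All rest on the 1 saline array and on single arrays at 24 h and 36 h. At 24 h the distances of Tef and Nr1d2 from saline were smaller than their larger differences within a pair, 0.06 and 0.15.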

How the results depend on the processing

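The counts of 4 and 2 clock genes with the 36 h array above or below all others did not change under either rescaling. They were also the same without saline or without any 1 of the other toxin arrays. Leaving out an array could only keep or raise these counts, so that says nothing of their stability. No clock gene was called under any alternative. Called genes at 48 h against saline numbered 12 after repeated quantile normalisation, 77 after subtracting each array's median and 3 without dim genes, and at 72 h against saline 6, 13 and 3; with 1.5-fold in place of 2-fold, 2080 genes at 24 h and 2104 at 36 h differed from saline. Leaving out 1 array called 0 genes in each comparison. Ciart at 36 h turned to 0.0027575 without the 24 h array. Small differences changed sign: Npas2 was 0.0154 at 48 h from saline and -0.0156 at 72 h from 48 h after that renormalisation. With 1 array left out, Npas2 ranged from -0.34 to 0.17 at 48 h and from -0.20 to 0.0890 at 72 h from saline, and from -0.23 to 0.29 between 72 h and 48 h. Arntl ranged from -0.29 to 0.0261 at 48 h from saline and from -0.24 to 0.0765 between 72 h and 48 h, and Nr1d2 from -0.0444 to 0.0755 at 72 h from saline. In these the spread between 2 arrays exceeds the difference. Without changing sign, Dbp ranged from 0.0288 to 0.31 at 48 h from saline and from 0.19 to 0.47 between 72 h and 48 h, and in the last comparison Nr1d2 ranged from 0.14 to 0.29 and Tef from 0.0458 to 0.10. The low values of Nr1d2, Tef and Dbp between these times came without the first array of 48 h. The replicate numbers of 48 h and 72 h are shared by label only. The pair differences correlated at -0.13 over the 22180 genes, which are not independent of each other. With the replicate block 0 genes were called between 72 h and 48 h, and 0 with the numbers crossed, an alternative chosen after seeing the data, as were the counts without single arrays.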
